A study of Mus musculus with 6 samples.

Results

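Cytoplasmic polyadenylation and translational activation regulators were examined in the transcriptomes of mouse oocytes with and without Lsm14b. The set was given by name and holds 9 genes of the 24255 in the deposited table. It comprises the CPE-binding proteins Cpeb1, Cpeb2, Cpeb3 and Cpeb4, the RNA-binding proteins Dazl and Pum2, the cytoplasmic poly(A)-binding proteins Pabpc1 and Pabpc1l, and Plat. Plat is in the set as a stored mRNA that the pathway acts on. For short, all 9 are called regulators below, although Plat is not one. All 9 were found in the table by symbol, and 6 of them reached 1 FPKM in at least 1 library and entered the test across 6398 genes. FPKM is the number of fragments scaled to transcript length and to the fragments of the library.

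The study sequenced the RNA of fully-grown oocytes (FGOs), taken at the germinal vesicle (GV) stage before meiosis resumes, from Lsm14b-KO females and from wild type (WT) females, with 3 libraries per genotype and 20 oocytes per library. Lsm14b-KO mice were homozygous for Lsm14b tm1a(KOMP)Mbp, a reporter-tagged insertion that acts in all cells of the animal and not in the oocyte alone, on a C57BL/6J background. Every female, WT or Lsm14b-KO, had received 5 IU of PMSG, a gonadotropin that drives follicle growth, 46 h before collection, and the labels give no age. The labels number the libraries of a genotype without saying whether they came from separate animals, so the p-values measure the spread between these libraries only.

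Fully-grown oocytes no longer transcribe, and they meet the need for new protein by activating stored mRNAs. Many of these mRNAs are kept with short poly(A) tails and carry a cytoplasmic polyadenylation element (CPE), a U-rich sequence in the 3′ UTR that CPEB1 binds. During maturation CPEB1 is phosphorylated, the tail is lengthened, and poly(A)-binding protein joins the tail to the cap-binding machinery. In mouse oocytes this was first described for Plat mRNA, and DAZL acts together with CPEB1 on a shared group of mRNAs.

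The sequences below are elements near the 3′ ends of the 3 transcripts whose levels passed the test between genotypes, since the CPE and the polyadenylation hexanucleotide are the elements through which this pathway reads an mRNA. Each run is 30 bases of DNA written in the sense of the mRNA, 5′ to 3′, with the element in capitals. Sequences and positions come from GENCODE vM21 (GRCm38), and distances are counted from 1 at the last annotated base of the transcript to the first base of the element.
Plat, CPE 89 bases from the end (chr8:22782744-22782773, + strand): agtatatttataTTTTAATctattttagtt
Plat, CPE 125 bases from the end (chr8:22782708-22782737, + strand): agaactgtatgaTTTTAATaattgatgaat
Plat, hexanucleotide 29 bases from the end (chr8:22782804-22782833, + strand): ctgtacttaaatAATAAAttcagaggtatt
Cpeb1, nearest CPE, 249 bases from the end (chr7:81347257-81347286, - strand): cttgacttttctTTTTAATttaacgattac
Dazl, nearest CPE, 373 bases from the end (chr17:50279752-50279781, - strand): aagtcaaaattcTTTTATgtcaccaagtca
Dazl, hexanucleotide 21 bases from the end (chr17:50279400-50279429, - strand): cttgtatacacgAATAAAacctttttttca

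The elements were searched on the sense strand only, as TTTTAT or TTTTAAT for the CPE and AATAAA or ATTAAA for the hexanucleotide, and neighbouring matches may share bases. In the last 100 bases Plat alone of the 9 transcripts held a CPE, and 19.6% of 5927 tested protein-coding genes had one there. All 9 held a hexanucleotide in that window, as did 81.3% of the 5927 genes. Over the last 400 bases, a window that lies within the 3′ UTR of all 9 and was chosen after the shorter one had been seen, 7 of 9 held a CPE against 40.8% of 5899 genes. Pum2 and Pabpc1l had none there. For the 5899 genes the window was not confined to the 3′ UTR and can hold coding sequence. TGTANATA, the element that Pumilio proteins bind, was found in the last 400 bases of 0 of the 9 transcripts and of 11.2% of the genes. A match is a string of letters at an annotated end, and the ends used in these oocytes were not measured.

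**Figure D1:**
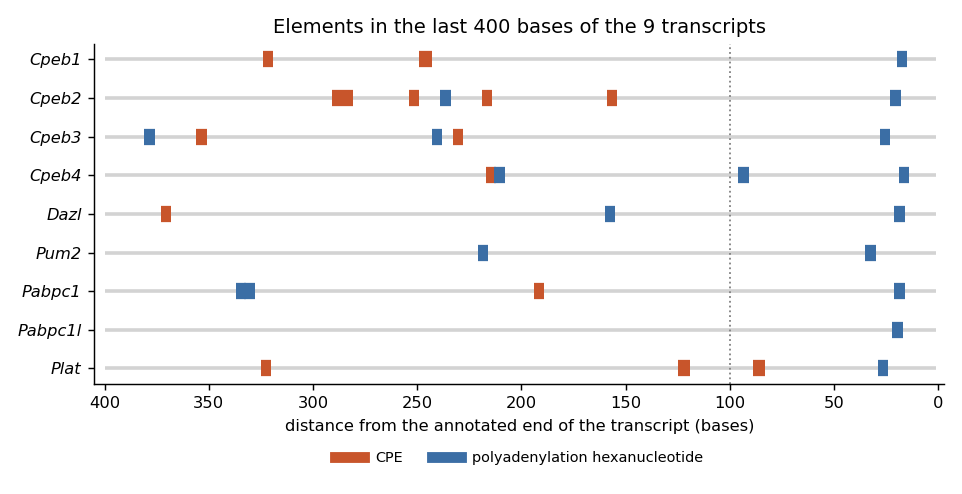
Positions of CPEs (orange) and polyadenylation hexanucleotides (blue) in the last 400 bases of the 9 transcripts, with the distance from the annotated end in bases on the horizontal axis and a dotted line at 100 bases. Plat is the only transcript with a CPE to the right of the dotted line, and each transcript has a hexanucleotide within 35 bases of its end.

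Lsm14b itself had 2.77, 3.98 and 1.72 FPKM in WT against 0, 0 and 0.102 FPKM in Lsm14b-KO, as the labels have it. The oocyte markers Zp3, Gdf9, Bmp15, Dppa3, Ddx4 and Nlrp5 summed to between 25700 and 65190 FPKM in every library. Dppa3 alone, at 19430 to 63630 FPKM, made up most of each sum. Ddx4 was below 1 FPKM in every WT library and at 2.86, 3.49 and 3.31 FPKM in Lsm14b-KO (limma adjusted p = 0.00500). Ddx4 thus entered the test through the Lsm14b-KO libraries alone and is high there by selection, so its direction carries no weight. The values of the other oocyte markers overlapped between genotypes. Of 12 cumulus and granulosa cell markers, Foxl2, Amh, Inhba and Ptx3 were listed at 0 in all libraries, and the 12 summed to 9.73 to 13.6 FPKM in WT and 6.14 to 10.1 FPKM in Lsm14b-KO. The 6 red blood cell markers in the table were listed at 0 throughout. The Lsm14b-KO libraries were deeper, at 1.33 to 2.17 times the relative depth of WT replicate 1 against 1.0 to 1.14 times in WT, and their FPKM summed to less, at 564671 to 1029728 against 1141324 to 1244182. Depth and FPKM sum therefore move with genotype, and their part in the differences below was not tested beyond the other scalings given with them. Over the tested genes Lsm14b-KO replicate 1 correlated with the WT libraries at 0.952 to 0.954 and with Lsm14b-KO replicates 2 and 3 at 0.917 and 0.960, while replicate 2 correlated with WT at 0.867 to 0.890. Several genes that most cells use, such as Cpsf1, were listed at 0, so a low value or a 0 in this table does not show that an mRNA was absent.

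On log2(FPKM + 1), limma gave an adjusted p under 0.05 to 21.6% of the 6398 tested genes, with 408 (6.38%) higher and 975 (15.2%) lower in Lsm14b-KO. Of the 6 tested regulators 3 passed. Cpeb1 was higher in Lsm14b-KO oocytes, and Dazl and Plat were lower. The other 3, Cpeb3, Pum2 and Pabpc1l, did not pass, with log2 fold changes between 0.34 and 0.52. In all 6 the values of the genotypes did not overlap, a separation seen in 45.0% of the tested genes. For each of the 6 regulators an exact permutation test over the 6 libraries gave p = 0.10, the lowest two-sided p that 3 against 3 libraries allow. Cpeb3, among these 6, reached 1 FPKM through the Lsm14b-KO libraries alone, so its separation was favoured by that selection. In bulk libraries, fewer cells with an mRNA and less of it per cell cannot be told apart.

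**Figure D2:**
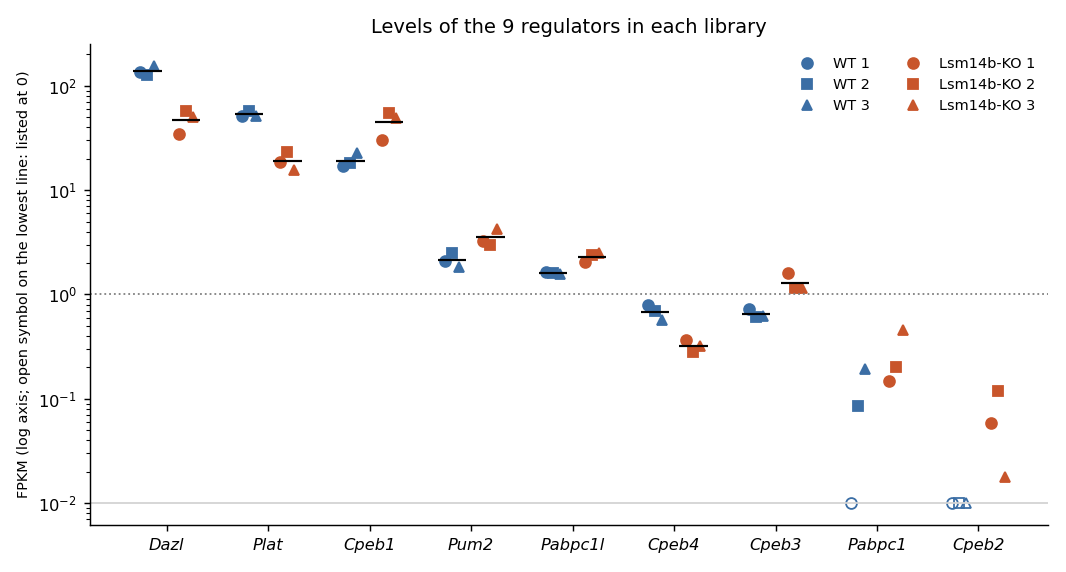
Level of each of the 9 regulators in the 6 libraries, in FPKM on a log axis, with WT in blue and Lsm14b-KO in orange, and black bars at the group means where no library was at 0. The dotted line is at 1 FPKM, and open symbols on the lowest line are values listed at 0. Dazl and Plat lie lower and Cpeb1 lies higher in all 3 Lsm14b-KO libraries than in any WT library.

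Cpeb1 (chr7:81347026-81455465, - strand) encodes the protein that binds the CPE and both represses and activates the mRNAs that carry it. Its level was 16.9, 18.1 and 22.7 FPKM in WT replicates 1 to 3 and 29.99, 54.6 and 49.0 FPKM in the Lsm14b-KO replicates in the same order, which holds for all values that follow. The lowest Lsm14b-KO library, replicate 1, was still above the highest WT library. The means were 19.2 ± 3.06 FPKM in WT and 44.5 ± 12.9 FPKM in Lsm14b-KO (SD, n = 3 each), so that the spread was wider in Lsm14b-KO. On the log2(FPKM + 1) scale the difference was 1.14 (SE 0.31, 95% interval 0.42 to 1.86, limma adjusted p = 0.0380). Under the 16 alternatives the adjusted p ran from 0.00262, without Lsm14b-KO replicate 1, to 0.146, without WT replicate 1.

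The other CPEB genes encode proteins of the same family, with a related RNA-binding part, that are best known from neurons and from later steps of maturation. Cpeb3 (chr19:37021291-37208601, - strand) was at 0.732, 0.603 and 0.623 FPKM in WT and at 1.59, 1.15 and 1.14 FPKM in Lsm14b-KO. All 3 Lsm14b-KO values lay above the WT values, and all lay close to the minimum of 1 FPKM, which Cpeb3 reached through the Lsm14b-KO libraries alone. The log2 difference was 0.47 (SE 0.19, 95% interval 0.03 to 0.90, adjusted p = 0.106), and it was 0.20 after correction for transcript length and GC content. The antisense gene A330032B11Rik within Cpeb3 was listed at 0 in 5 libraries and at 0.0785 FPKM in the other, and the labels do not state that counting used the strand.

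Cpeb4 (chr11:31872211-31935634, + strand), which takes over from CPEB1 late in meiosis in frog oocytes, was at 0.792, 0.696 and 0.570 FPKM in WT and at 0.364, 0.283 and 0.318 FPKM in Lsm14b-KO. Its values were lower in all 3 Lsm14b-KO libraries than in any WT library, the opposite order to Cpeb1 and Cpeb3. It stayed below 1 FPKM in every library and was not tested. In a fit with no minimum the log2 difference of Cpeb4 was -0.35 with an adjusted p of 0.192. Cpeb2 (chr5:43233170-43289724, + strand) was listed at 0 in the 3 WT libraries and at 0.0584, 0.119 and 0.0178 FPKM in Lsm14b-KO. All of these lie far below 1 FPKM, and no fold was formed from them. Within the family the WT levels thus fell in the order Cpeb1, Cpeb4, Cpeb3 and Cpeb2, with the ranges of Cpeb4 and Cpeb3 overlapping. In Lsm14b-KO Cpeb3 lay above Cpeb4 in every library.

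Dazl (chr17:50279395-50293636, - strand) encodes an RNA-binding protein of germ cells that brings stored mRNAs into translation during oocyte maturation. It was the most abundant of the 9 mRNAs in WT, at 135, 128 and 155 FPKM, and had 34.4, 57.2 and 50.5 FPKM in Lsm14b-KO. The highest Lsm14b-KO library lay far below the lowest WT library. The means were 139.5 ± 14.2 FPKM in WT and 47.4 ± 11.8 FPKM in Lsm14b-KO (SD, n = 3 each). On the log2(FPKM + 1) scale Dazl fell by 1.56 (SE 0.30, 95% interval -2.27 to -0.86, adjusted p = 0.0131). The call was lost when FPKM were rescaled to a common sum (TPM scaling, -0.88, adjusted p = 0.125) and under quantile normalization (-0.97, adjusted p = 0.0834), and the 16 alternatives gave adjusted p of 0.00220 to 0.125.

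Pum2 (chr12:8674134-8752581, + strand) encodes a Pumilio protein, which binds TGTANATA in RNA and in frog oocytes helps CPEB1 to repress cyclin B1 mRNA. It was at 2.10, 2.47 and 1.83 FPKM in WT and at 3.27, 3.01 and 4.27 FPKM in Lsm14b-KO. All 3 Lsm14b-KO values were above the WT values, with a gap of less than 1 FPKM between the groups. The log2 difference was 0.52 (SE 0.20, 95% interval 0.05 to 0.99, adjusted p = 0.0997). Under TPM scaling Pum2 passed the test (1.05, adjusted p = 0.0407), as did Cpeb3 (0.83, adjusted p = 0.0387), and under the other alternatives neither did, with adjusted p up to 0.283 for Pum2 and 0.508 for Cpeb3.

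Pabpc1l (chr2:164025450-164050538, + strand) encodes the embryonic poly(A)-binding protein ePAB, the main cytoplasmic poly(A)-binding protein of oocytes. It was at 1.63, 1.61 and 1.58 FPKM in WT and at 2.04, 2.40 and 2.49 FPKM in Lsm14b-KO. The WT libraries were within 0.05 FPKM of each other, and the 3 Lsm14b-KO libraries were above them. The log2 difference of 0.34 did not pass the test (SE 0.18, 95% interval -0.07 to 0.75, adjusted p = 0.185) and did not under any of the 16 alternatives. Pabpc1 (chr15:36595661-36609668, - strand), the poly(A)-binding protein of most somatic cells, was at 0, 0.0861 and 0.191 FPKM in WT and at 0.148, 0.202 and 0.452 FPKM in Lsm14b-KO. The groups overlapped and Pabpc1 was below the minimum in all libraries. Pabpc1 also shares at least 95% identity over at least 200 nt with the pseudogene Gm16580, so its fragments may have been split between the copies.

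Plat (chr8:22757727-22782844, + strand) encodes tissue-type plasminogen activator, a secreted protease whose stored mRNA is polyadenylated and translated when the oocyte resumes meiosis. It was at 51.3, 57.3 and 51.1 FPKM in WT and at 18.5, 23.3 and 15.7 FPKM in Lsm14b-KO. The groups were far apart, and the WT libraries lay close together. The means were 53.3 ± 3.52 FPKM in WT and 19.2 ± 3.87 FPKM in Lsm14b-KO (SD, n = 3 each). On the log2(FPKM + 1) scale Plat fell by 1.44 (SE 0.27, 95% interval -2.06 to -0.83, adjusted p = 0.0111). The call was lost under TPM scaling (-0.77, adjusted p = 0.110), and the 16 alternatives gave adjusted p of 0.00324 to 0.110. Granulosa cells also make Plat. Of the 12 granulosa markers Cyp19a1, with 11.5, 8.26 and 10.5 FPKM in WT and 5.47, 3.01 and 5.76 FPKM in Lsm14b-KO, made up most of the sum and was lower in Lsm14b-KO. The means of Fshr (0.852 and 1.94 FPKM), Kitl (0.223 and 0.503 FPKM) and Nr5a2 (0.378 and 0.555 FPKM) were higher in Lsm14b-KO, and the part of such cells in the Plat difference was not tested.

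The 3 calls depended on which library was left out. When any 1 WT library or Lsm14b-KO replicate 3 was left out, 0 of the 6 regulators passed, and without Lsm14b-KO replicate 2 Dazl and Plat passed but Cpeb1 did not. Without Lsm14b-KO replicate 1 all 3 passed. Over all tested genes 1383 passed with all 6 libraries, 315 without Lsm14b-KO replicate 3, 396 to 462 without 1 WT library and 2898 without Lsm14b-KO replicate 1. The sign of each of the 6 regulators was the same in all 16 alternatives. For Cpeb3, which entered the test through the Lsm14b-KO libraries alone, the sign carries no weight.

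**Figure D3:**
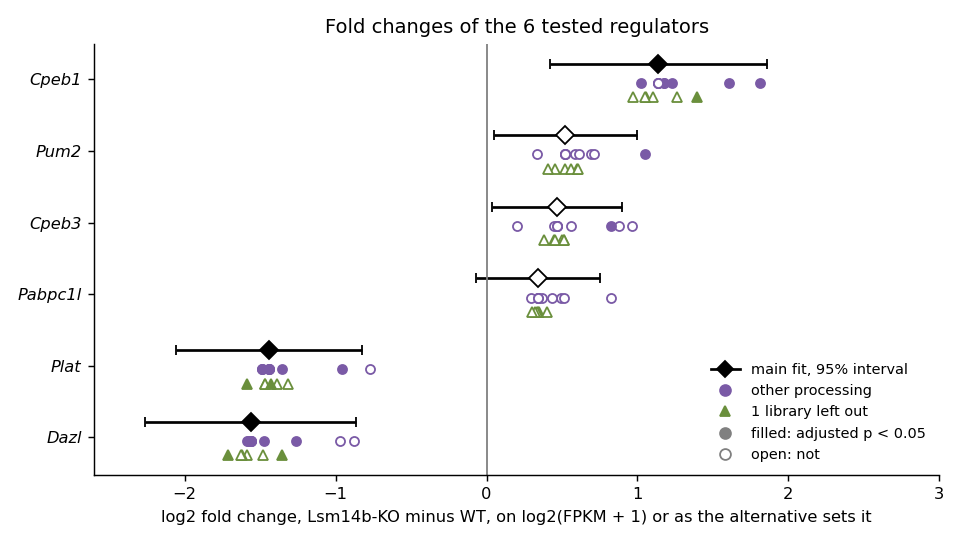
Log2 fold change (Lsm14b-KO minus WT) of the 6 tested regulators, with the main fit as diamonds with 95% intervals, 10 other ways of processing as circles and the 6 fits with 1 library left out as triangles, filled where the adjusted p was under 0.05. Cpeb1 lies to the right and Dazl and Plat lie to the left of 0 in every fit, while most triangles are open.

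TPM scaling moved the median log2 fold change of all tested genes by 0.48, from -0.08 to 0.40, and turned the split of calls from 408 higher and 975 lower into 833 higher and 486 lower. Relative to that median Cpeb1 was at 1.21 in the main fit and at 1.41 under TPM scaling, Dazl at -1.49 and -1.28, and Plat at -1.37 and -1.17. Quantile normalization moved the median by 0.14 and the length and GC correction by 0.14. The 3 regulators therefore kept their place on either side of the median gene.

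Ratios between genes within a library do not depend on how libraries are scaled to each other, and they were formed after the values had been seen, with no test. The ratio of Cpeb1 to Dazl in FPKM was 0.125, 0.141 and 0.146 in WT, and in Lsm14b-KO it was 0.873, 0.955 and 0.969. The means were 0.137 ± 0.0108 and 0.932 ± 0.0519 (SD, n = 3 each), 6.79 times higher in Lsm14b-KO. The ratio of Cpeb1 to Plat was 0.329, 0.315 and 0.443 in WT and 1.62, 2.34 and 3.12 in Lsm14b-KO. Neither ratio overlapped between genotypes. The ratio of Dazl to Plat, in contrast, was 2.63, 2.24 and 3.04 in WT and 1.86, 2.45 and 3.22 in Lsm14b-KO, with overlapping ranges. In WT Dazl, Plat and Cpeb1 thus stood in this order without overlap, and in Lsm14b-KO the ranges of Dazl and Cpeb1 overlapped and both lay above Plat.

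**Figure D4:**
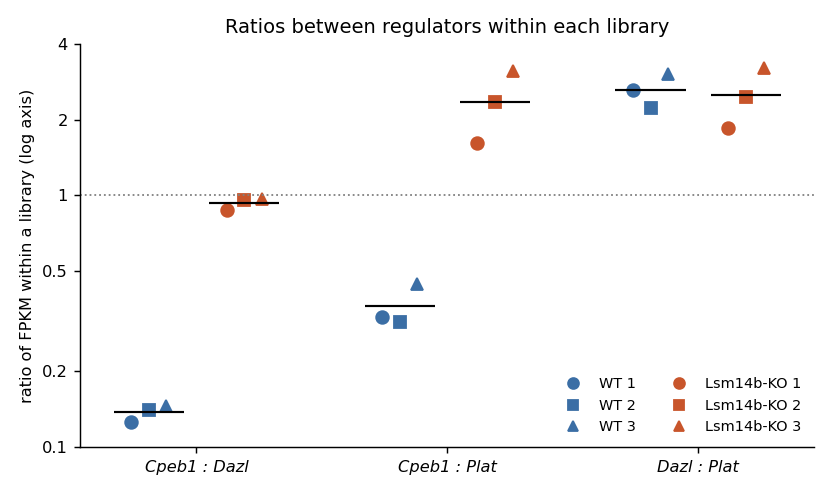
Ratio of the FPKM of pairs of regulators within each library, on a log axis, with WT in blue, Lsm14b-KO in orange and bars at the group means. The ratio of Cpeb1 to Dazl lay at 0.125 to 0.146 in WT and at 0.873 to 0.969 in Lsm14b-KO, while the ratios of Dazl to Plat overlapped.

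For each tested regulator the other gene with the most similar log2(FPKM + 1) profile over the 6 libraries was sought among 4996 genes (4997 for Cpeb3) with a mean of at least 1 FPKM. With so few libraries many genes reach a high correlation, and between 81 and 547 genes had r above 0.9 for each regulator, so these are descriptions only. The nearest profile to Cpeb1 was that of Hspa8, a cytosolic chaperone (r = 0.997), with 6.85, 9.82 and 16.8 FPKM in WT and 28.1, 154.5 and 106 FPKM in Lsm14b-KO. The nearest to Dazl was Thap7 (r = 0.998), and the nearest to Plat was Tdrkh (r = 0.996), a Tudor protein of the piRNA pathway. Cpeb3 was nearest to Lhx8 (r = 0.991), a transcription factor of oocytes, Pum2 to Tmbim4 (r = 0.992) and Pabpc1l to Gcc2 (r = 0.998).

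Further genes of the pathway were taken from 6 lists of 77 genes in all, of which 56 were tested. Of these 56, 15 passed the test, 5 higher and 10 lower in Lsm14b-KO, a share of 26.8% beside 21.6% of all tested genes. Under TPM scaling the split turned to 12 higher and 4 lower, and under quantile normalization it was 9 higher and 6 lower. With 1 library left out the count ran from 3, without WT replicate 1 or 3 or Lsm14b-KO replicate 3, to 32 without Lsm14b-KO replicate 1, and it was 4 without WT replicate 2, 11 without Lsm14b-KO replicate 2 and 7 with no filter on low values. The median log2 fold change of the 56 was 0.29 and that of all tested genes -0.08.

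In the polyadenylation machinery, which cleaves pre-mRNA in the nucleus and lengthens or trims tails in the cytoplasm, 8 of 12 genes were tested and 1 passed. Cpsf4l, related to a subunit of the cleavage and polyadenylation specificity factor, fell from 505, 554 and 624 FPKM to 266, 244 and 245 FPKM (log2 fold change -1.15, adjusted p = 0.0248). It did not pass under TPM scaling, under quantile normalization or with the replicate number as a block (adjusted p = 0.0643). Papolg, a poly(A) polymerase, and Parn, a deadenylase that opposes tail growth in the CPEB1 complex, did not pass, with log2 fold changes of 0.64 (adjusted p = 0.145) and 0.68 (adjusted p = 0.0925). Papd4, which encodes the cytoplasmic poly(A) polymerase GLD-2, was at 1.56, 1.23 and 1.06 FPKM in WT and at 0.702, 0.801 and 0.644 FPKM in Lsm14b-KO and did not pass either (-0.41, adjusted p = 0.146). Papd4 reached 1 FPKM through the WT libraries alone, so its sign carries no weight. The median of the 8 was 0.03.

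Among the other poly(A)-binding proteins and their partners 5 of 10 genes were tested, of which 2 were higher and 1 was lower. Paip2 and Paip2b encode inhibitors that release poly(A)-binding protein from the tail. Paip2 rose from 155, 167 and 220 FPKM to 282, 692 and 499 FPKM (1.36, adjusted p = 0.0435), and Paip2b rose from 3.79, 3.75 and 3.20 FPKM to 6.94, 13.2 and 8.65 FPKM (1.17, adjusted p = 0.0211). Pabpn1l, an oocyte poly(A)-binding protein needed for maternal mRNA decay, fell from 4.04, 2.0 and 3.59 FPKM to 0.643, 0.739 and 0.523 FPKM (-1.33, adjusted p = 0.00990). Pabpn1l reached 1 FPKM through the WT libraries alone and is low in Lsm14b-KO by selection, so its sign in this fit carries no weight. With no filter on low values its adjusted p was 0.0315. The median of the 5 was 0.37. Paip2 and Paip2b did not pass with no filter on low values, nor Pabpn1l under TPM scaling. With the replicate number as a block Paip2 did not pass either (adjusted p = 0.0544).

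Of 17 other regulators that bind 3′ UTRs, 10 were tested and 3 passed, all lower on this scale. Under TPM scaling 2 passed as higher and 1 as lower, and under quantile normalization 1 as higher and 2 as lower. The 3 were Nanos2, a translational repressor of germ cells (-1.32, adjusted p = 0.00524), Rbpms (-1.16, adjusted p = 0.0205, and 0.137 under TPM scaling) and Zar1l (-1.33, adjusted p = 0.0144). Zar1l, a relative of the mRNA storage factor Zar1, was at 1330, 1162 and 1349 FPKM in WT and at 477, 494 and 559 FPKM in Lsm14b-KO, and it did not pass under TPM scaling, quantile normalization or the length and GC correction. The median of the 10 was 0.33, of the other sign, and 6 of the 7 genes that did not pass had positive log2 fold changes. Elavl1, among these 6, reached 1 FPKM through the Lsm14b-KO libraries alone. With no filter on low values the median of the list was 0.18.

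Of 14 cap-binding proteins and their repressors, 10 were tested, and 3 were higher and 1 was lower. Patl2, an oocyte partner of stored mRNPs, rose from 0.463, 0.506 and 0.448 FPKM to 2.61, 4.21 and 2.23 FPKM (1.42, adjusted p = 0.00624) and passed in all 16 alternatives. Ddx6, the RNA helicase of the CPEB repressor complex, was at 0, 0 and 0.340 FPKM in WT and at 0.825, 3.48 and 1.35 FPKM in Lsm14b-KO (1.28, adjusted p = 0.0347). Both Patl2 and Ddx6 reached 1 FPKM through the Lsm14b-KO libraries alone. Ddx6 did not pass with no filter on low values (adjusted p = 0.0830), and it was left out when 3 libraries had to reach 1 FPKM. Eif4e3, a relative of the cap-binding protein, was higher as well (0.97, adjusted p = 0.0353), and Eif4e2 was lower (-1.12, adjusted p = 0.0313, but 0.102 under TPM scaling and 0.0794 with no filter). The median of the 10 was 0.61, and 9 of the 10 had a positive sign. Eif4ebp3, among these 9, also reached 1 FPKM through the Lsm14b-KO libraries alone. Genes that enter the test this way are high in Lsm14b-KO by selection, so their sign carries no weight. With no filter on low values all 14 were fitted, and the median was 0.36 beside 0.02 for all genes.

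The kinases and the ligase that act on CPEB1 were all tested, and 0 of 6 passed with limma, while 3 had an unadjusted p under 0.05. Plk1, which had the highest p of these 3, ranked 2465 by p among the 6398 tested genes. An unadjusted p under 0.05 was therefore common over all tested genes. All 6 had a positive sign, with a median of 0.68. Mapk3, which encodes ERK1, was at 2.34, 2.04 and 4.04 FPKM in WT and at 4.13, 16.7 and 11.02 FPKM in Lsm14b-KO (1.47, adjusted p = 0.0506), and it passed in 7 of the 16 alternatives. Plk1 (0.67, adjusted p = 0.122) and Btrc (0.70, adjusted p = 0.0989) did not pass. Btrc reached 1 FPKM through the Lsm14b-KO libraries alone. Without Lsm14b-KO replicate 1, 4 of the 6 passed, Plk1 (0.0242) and Btrc (0.0231) among them, beside 2898 of all 6398 tested genes.

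The last list held 18 mRNAs known for translation that depends on a CPE or on DAZL, of which 17 were tested and 4 passed, all lower on this scale. Under TPM scaling 2 passed as higher and 3 as lower, and without Lsm14b-KO replicate 1 the counts were 3 and 7. Btg4, an adaptor of the deadenylase that clears maternal mRNAs, fell from 4979, 4441 and 5534 FPKM to 1087, 1454 and 1522 FPKM (-1.89, adjusted p = 0.00474). Orc6, a subunit of the origin recognition complex, fell from 948, 982 and 803 FPKM to 366, 57.4 and 125 FPKM (-2.71, adjusted p = 0.0206). Sycp1 (-1.54, adjusted p = 0.0271) and Il7 (-1.04, adjusted p = 0.0306) were lower as well. Btg4 did not pass under quantile normalization (adjusted p = 0.0649), nor did Orc6 (0.0595) and Sycp1 (0.0742) with no filter on low values. On log2(FPKM + 0.01) Sycp1 did not pass either (adjusted p = 0.0666). The median of the 17 was -0.25, with 10 negative and 7 positive signs. Over the 1163 tested genes with a CPE in the last 100 bases of the transcript the median log2 fold change was -0.05, with 5.85% higher and 18.9% lower, and over the 4764 genes without one it was -0.03, with 6.68% higher and 13.7% lower. In the last 400 bases the order of the medians turned. There it was 0.01 over 2404 genes with a CPE, with 6.78% higher and 15.8% lower. Over the 3495 genes without one it was -0.07, with 6.38% higher and 14% lower. Genes with a CPE also had longer transcripts. Their median length was 2606 nt against 2301 nt without a CPE in the 100-base window, and 2741 against 2103 nt in the 400-base window. The part of transcript length in these differences was not tested.

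**Figure D5:**
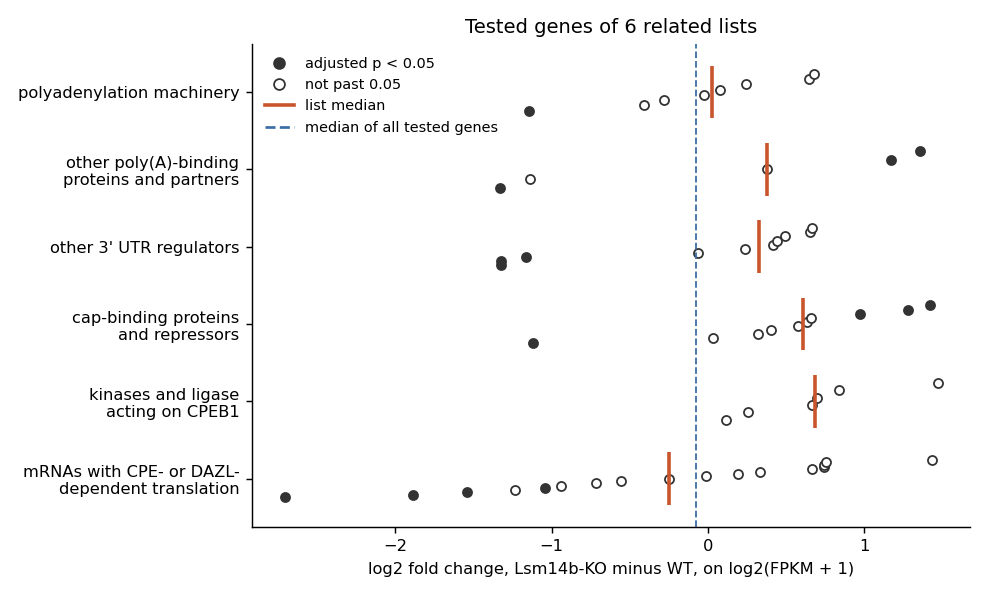
Log2 fold change (Lsm14b-KO minus WT, on log2(FPKM + 1)) of the tested genes in 6 lists of the pathway, one circle per gene, filled where the adjusted p was under 0.05, with the list median in orange and the median of all tested genes as a dashed line at -0.08. The highest list median, 0.68, was that of the kinases and ligase acting on CPEB1, in which no circle is filled, and the lowest, -0.25, was that of the mRNAs with CPE- or DAZL-dependent translation.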

How the data were processed

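Each library held the RNA of 20 oocytes, amplified with the Smart-seq2 procedure and read in 150 bp pairs. The labels name 2 library kits and random primers, so the kit and the primer, and with them the effect of poly(A) tail length on capture, are unsettled. Per the labels, the authors aligned trimmed reads to mm10 with TopHat2 (2.0.13) and computed FPKM with Cufflinks (2.2.1), and the deposited FPKM values were used here. The deposited columns of the authors' own comparison (fold change, p and q) were not used. Absolute depth is not known, and relative depth came from the commonest ratio among genes of very low FPKM.

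FPKM were analysed on the log2(FPKM + 1) scale. Any gene that reached 1 FPKM in 1 library or more was tested with limma 3.58.1 (R 4.3.3, eBayes with trend, genotype as the only term, two-sided), with Benjamini-Hochberg adjustment over all 6398. The test was checked on simulated data. The 9 members, the lists and the tests were chosen with earlier results of these data known. Named genes were the members, Lsm14b, the 3 lowest p in each list and the nearest profile to each tested member. Eif4e3, Eif4ebp3, Elavl1, Il7 and Papd4 were named after their values were seen. Motifs and copies (blastn 2.17.0) used the longest RefSeq-matched GENCODE vM21 transcript. A sequence window of Cpeb1 is not reported here.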

Additional observations from a re-analysis of the deposited data

How the results depend on the processing

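Of 96 values of the 6 tested regulators under 16 alternatives, 76 kept their side of the threshold, 18 fell below it, 2 rose above it, and none changed sign. Cpeb3 entered the test through the Lsm14b-KO libraries alone, so its constant sign carries no weight. The number of genes that passed across the table was 1383, it was 720 with no filter on low values, where 14325 genes were tested, and it ranged from 315 to 2898 with 1 library left out. The number of regulators that passed was 3, and it ranged from 0 to 3 with 1 library left out. An arm of 2 libraries has fewer degrees of freedom, and the spread was pooled over both groups. With the replicate number as a block, 1244 genes and 2 regulators passed, since Cpeb1 had an adjusted p of 0.0521, also missed with no filter on low values (0.0725). The labels do not say whether the numbers pair the libraries. Deviations of equally numbered WT and Lsm14b-KO libraries correlated at 0.19, -0.128 and 0.018. WT replicate 1 correlated best with Lsm14b-KO replicate 1 (0.19), and WT replicate 3 with Lsm14b-KO replicate 2 (0.306). With 3 libraries per genotype these values cannot show whether the libraries were paired. With 1 library left out, the number that passed ranged from 0 to 3 in the polyadenylation machinery, 0 to 5 in the poly(A)-binding proteins and partners, 1 to 5 in the 3′ UTR regulators and in the cap-binding proteins, 0 to 4 in the kinases and ligase, and 1 to 10 in the mRNAs with CPE- or DAZL-dependent translation. Absolute depth is not known, and Cpeb2, Cpeb4 and Pabpc1 lay below 1 FPKM in every library.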
